A study of Mus musculus with 44 samples.

Results

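The Hox genes of the mouse, 39 genes in 4 clusters, were followed through 44 ATAC-seq peak lists from cultured cortical neurons. ATAC-seq marks DNA that a transposase can reach. Members were the protein-coding genes whose symbols are Hoxa, Hoxb, Hoxc or Hoxd with a number from 1 to 13, 39 of 20665 autosomal protein-coding genes on the build mm10. They lie on chromosomes 6 (11 genes of cluster A), 11 (10 genes, B), 15 (9 genes, C) and 2 (9 genes, D). Peak intervals within 5 kb of a member were counted in each library. For tests, 76 of 353000 regions of 500 bp that overlap a member or its 5 kb flanks were used, and these are called Hox regions.

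Neurons came from embryonic day 16.5 cortex, and all wells were silenced overnight with 1 µM tetrodotoxin and 100 µM D-AP5. In the drug experiment (16 libraries, 7 days in vitro, DIV7), neurons received 0.1% DMSO or 100 nM FHT1015 for 10 or 30 min, unstimulated or with 50 mM KCl. FHT1015 is described in the labels as an inhibitor of the ATPase of BAF, an ATP-driven chromatin remodeler, and was given to neurons that the labels call wild type, with no guide RNA named. In the Arid2 experiment (8 libraries, DIV7), neurons carried a non-targeting guide RNA or an Arid2 knockout guide, unstimulated or after 30 min of KCl. Arid2 is a subunit of the PBAF form of the complex. In the Smarcc2 experiment (20 libraries, DIV18), neurons carried a non-targeting guide, or a Smarcc2 knockout guide with an empty vector or an added Smarcc2 (wild type, S586A or S586E), again unstimulated or after 30 min of KCl. Smarcc2 is a core scaffold subunit of BAF, and S586A and S586E replace 1 serine. Each of the 22 groups had 2 libraries. Biological replicates are single embryos' cortices in the labels, but no library is tied to an embryo, so p-values measure the spread between these libraries. The knockouts were populations of infected neurons, and no knockout level was measured in these files.

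Hox genes encode homeodomain transcription factors that give cells of the embryo their position from head to tail. Low-numbered paralogs act in the hindbrain, middle ones in the neck and trunk segments of the spinal cord, and high-numbered ones in the lumbar cord, limbs and tail. The cortex develops in front of their expression domain, and its cells keep the clusters under Polycomb, the complex that marks silent developmental genes, while trithorax proteins and BAF are known to act against Polycomb.

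RefSeq start-site windows on GRCm38.p6, the same build, were available for 22 of the 39 members and held 24 windows of 300 bp, from 250 bases before to 50 after a listed start. Of these, 8 overlapped a Hox region by at least 1 bp and 16 overlapped none. Of the 76 Hox regions, 10 were centred within 500 bp of a listed start. The windows of 5 genes are shown, up to 30 bases past the start and 5′ to 3′. In the first 3, capitals mark bases inside a Hox region. They are Hoxd1 (chr2:74762730-74763009, + strand), Hoxd9 (chr2:74697513-74697792, + strand) and Hoxd3os1, an antisense transcript within the Hoxd3 span (chr2:74716101-74716380, − strand). Hoxb1 (chr11:96365508-96365787, + strand) and Hoxd4 (chr2:74721728-74722007, + strand) are shown as members with no region. In Hoxb1 the capitals mark a match to TGATNNAT, the paired site of Hox proteins with a partner of the TALE class.
Hoxd1: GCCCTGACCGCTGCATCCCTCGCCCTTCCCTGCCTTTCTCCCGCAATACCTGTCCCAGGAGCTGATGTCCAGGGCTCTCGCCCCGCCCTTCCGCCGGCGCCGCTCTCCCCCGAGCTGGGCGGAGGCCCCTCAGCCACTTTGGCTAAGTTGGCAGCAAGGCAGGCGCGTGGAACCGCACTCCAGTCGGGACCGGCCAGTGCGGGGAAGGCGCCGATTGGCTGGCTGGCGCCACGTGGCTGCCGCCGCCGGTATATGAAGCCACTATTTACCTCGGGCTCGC
Hoxd9: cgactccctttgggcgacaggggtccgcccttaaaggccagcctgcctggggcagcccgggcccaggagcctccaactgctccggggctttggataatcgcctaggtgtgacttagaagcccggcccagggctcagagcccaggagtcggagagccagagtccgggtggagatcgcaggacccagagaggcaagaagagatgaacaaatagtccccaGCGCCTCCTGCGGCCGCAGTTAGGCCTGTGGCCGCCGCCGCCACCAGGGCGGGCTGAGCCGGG
Hoxd3os1: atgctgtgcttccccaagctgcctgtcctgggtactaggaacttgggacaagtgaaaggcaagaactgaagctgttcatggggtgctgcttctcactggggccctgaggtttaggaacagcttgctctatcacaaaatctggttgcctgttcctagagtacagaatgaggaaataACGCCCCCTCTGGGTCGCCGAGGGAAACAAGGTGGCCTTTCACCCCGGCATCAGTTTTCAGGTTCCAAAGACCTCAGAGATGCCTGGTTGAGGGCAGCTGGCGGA
Hoxb1: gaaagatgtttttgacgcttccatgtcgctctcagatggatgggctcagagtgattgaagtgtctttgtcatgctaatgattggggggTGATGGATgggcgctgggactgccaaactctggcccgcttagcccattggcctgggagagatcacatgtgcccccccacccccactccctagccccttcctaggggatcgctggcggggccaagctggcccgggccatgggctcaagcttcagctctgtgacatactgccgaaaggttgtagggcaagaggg
Hoxd4: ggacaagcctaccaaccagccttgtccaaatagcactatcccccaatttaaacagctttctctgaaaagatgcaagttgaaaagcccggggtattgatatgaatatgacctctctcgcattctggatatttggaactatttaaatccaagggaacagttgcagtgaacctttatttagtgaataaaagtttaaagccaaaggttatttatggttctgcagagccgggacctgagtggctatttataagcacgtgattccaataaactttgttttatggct
The Hoxd1 window lies whole within a region held by 23 libraries and has 26 CpG dinucleotides and a GC content of 69.3%. Hoxd9 has 63 of its 280 bases in a region held by 14 libraries, and Hoxd3os1 has 105 in a region held by 30. Hoxd4, with no region, has 4 CpGs and 39.6% GC. Over the 24 Hox windows at their full 300 bp the median was 14.5 CpGs, against 7 for all 31396 mouse windows. Hox windows that overlapped a region had 9 to 37 CpGs (median 20) and the others 4 to 45 (median 13), so the ranges overlapped. TGATNNAT, read on both strands, matched 4 of the 24 Hox windows (16.7%) and 8.80% of all windows. The activity-linked AP-1 motif TGANTCA matched 1 Hox window, the Hoxd11 window, and 7.85% of all. A match is a run of letters and not a measured site.

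Depth differed between experiments, which limits comparisons across them. No read counts were used, and depth was read as the background level of the peak caller, in reads piled up per base. The drug libraries had levels of 2.93 to 8.39, the Arid2 libraries 1.39 to 1.80 and the DIV18 libraries 0.942 to 3.68. The FHT1015 libraries held 146132 to 222230 intervals and the DMSO libraries 232155 to 282440, so these ranges did not overlap.

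Hox peaks ranked low in their lists, and their density differed between experiments. The 39 members with their flanks cover 451.893 kb in 10 blocks. A drug library had 35 to 122 intervals there, an Arid2 library 14 to 30 and a DIV18 library 5 to 21. Per Mb of Hox DNA this was 77.5 to 270 intervals in the drug experiment, against 95.2 to 158 over the windows of all genes. In the Arid2 experiment it was 31.0 to 66.4 against 79.6 to 107, and at DIV18 11.1 to 46.5 against 105 to 162. Hox DNA thus had fewer intervals per Mb than gene windows in each DIV18 and Arid2 library, while the drug libraries ranged on both sides. The 4 unstimulated FHT1015 libraries had more in Hox DNA, with 179 to 270 intervals per Mb against 97.6 to 121 over gene windows. The best Hox summit of a library stood between rank 24219 and rank 95292 of its list.

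**Figure D1:**
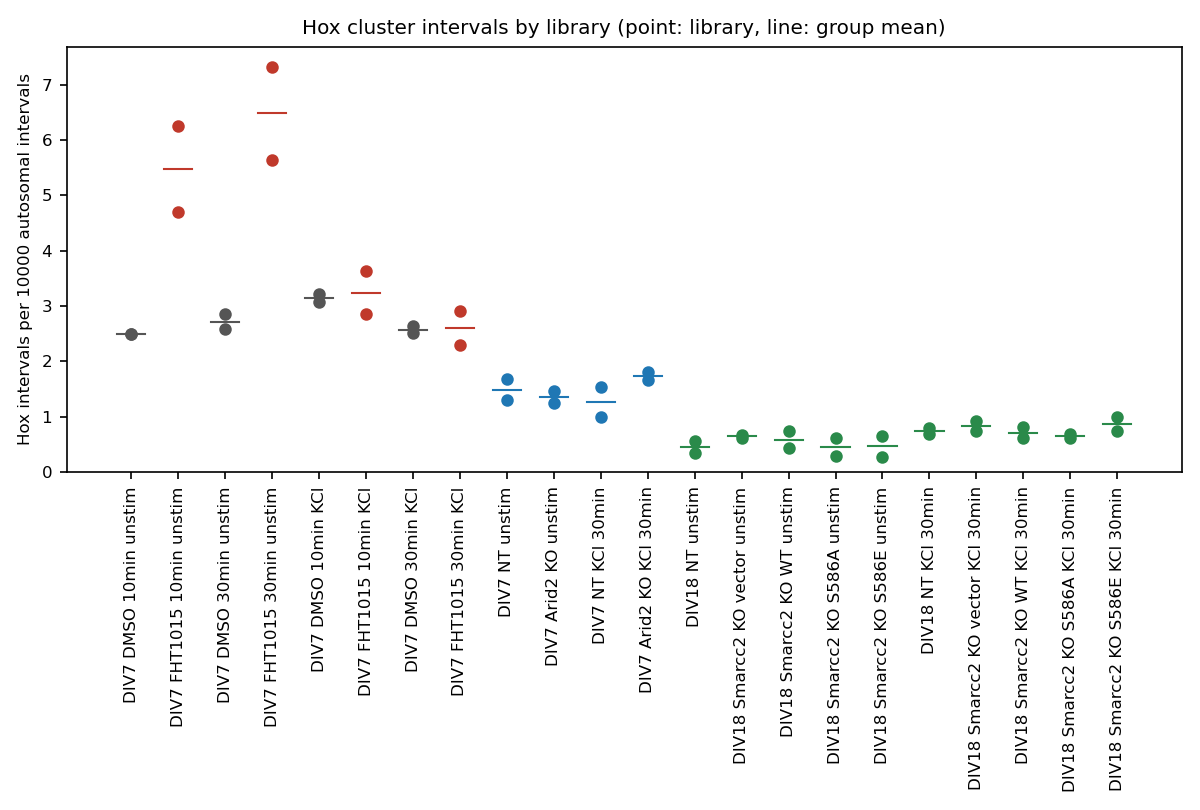
Intervals within 5 kb of a Hox gene per 10000 autosomal intervals (y axis) in each of the 44 libraries (points; line, mean of the 2 libraries of a group; grey DMSO, red FHT1015, blue DIV7 guide RNA, green DIV18). The 4 unstimulated FHT1015 libraries sit at 4.70 to 7.33 and the 20 DIV18 libraries at 0.27 to 0.99.

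Strength was expressed as a rank score. Summits of a library were ranked by the authors' −log10 p, and the score of a region was log2(178672/rank) of its best summit, or 0 where no summit among the first 178672 fell in it. A rise of 1 is a rank divided by 2. The median of the 39 members' mean scores was 0.26, against 3.40 for all genes and 1.09 for genes of up to 10 kb. Comparison lists stood higher. The 16 forebrain homeobox genes had a median of 3.35 and the 25 homeobox genes of posterior or non-neural tissue 1.01. The 11 genes flanking the clusters had 3.27, with Cbx5, a heterochromatin protein gene beside cluster C, at 8.48. The genes that act with or on Hox genes were open. TALE cofactors, which bind DNA beside Hox proteins, had a median of 4.94 with Pbx4 at 6.96, Polycomb genes 5.39 with Pcgf2 at 7.70, and trithorax genes 6.23 with Kdm6b, a demethylase of the Polycomb mark, at 7.43. The retinoid pathway, an upstream inducer of Hox genes in the hindbrain, had 2.80. Excitatory markers had 3.50 with Slc17a7, a glutamate transporter gene, at 5.39, and inhibitory markers 1.90. Markers of hindbrain and spinal neurons, the neurons known to use Hox genes, had 0.69. Glial and vascular lists had 2.58 (astrocytes), 3.18 (oligodendrocytes), 1.07 (microglia) and 2.44 (vessels and meninges). A peak near a gene does not show that the gene is expressed, and no RNA was analysed here.

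The regions were unevenly spread. Cluster A held 29 of the 76 regions, B 15, C 16 and D 16. Cluster A was the densest, with 2.51 regions per 10 kb, and B the sparsest, with 0.815. Of the 76, 45 lay inside the span of a member. All 44 libraries held 2 regions, at least 22 libraries held 15, and 31 regions were seen in 1 library each. At least 1 drug library held 66, at least 1 Arid2-experiment library 40 and at least 1 DIV18 library 19, and 35 were seen in the drug experiment alone. Cluster C had 11 regions held at DIV7 with guides and 2 at DIV18, while A had 10 and 6. By paralog group, the mean best score was highest in group 7 (1.10, 2 genes), group 9 (0.97, 4 genes) and group 8 (0.85, 3 genes), and lowest in group 11 (0.04, 3 genes). These means count shared regions more than once. Hoxa7 and Hoxa9 had the same lead region (1.53 for each gene), as did Hoxb8 and Hoxb9 (1.75 for each). Hoxc8, Hoxd8, Hoxc9 and Hoxd9 stood at 0.18 to 0.41. Groups 1 and 13, at the 2 ends of the clusters, had 0.32 and 0.54.

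In cluster A the strongest region, chr6:52221544-52222043, lay between Hoxa7 and Hoxa9, 1304 bp from the end of Hoxa9, a gene of blood progenitors and trunk patterning. It was held by all 44 libraries with a mean score of 1.53. DMSO libraries scored 1.41 to 2.28, FHT1015 libraries 1.86 to 2.88, Arid2-experiment libraries 0.37 to 1.98 and DIV18 libraries 0.43 to 2.06. The region inside Hoxa3, a gene of pharyngeal arch derivatives, at chr6:52211483-52211982, is also within 5 kb of Hoxa6 and Hoxa7. It had a mean of 0.78 and was held by 35 libraries.

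In cluster B, chr11:96278704-96279203 had the highest mean of any Hox region, 1.75, and was held by all 44 libraries. It lies between Hoxb9 and Hoxb8, 448 bp from the nearer edge of the Hoxb8 span, a gene of trunk patterning and of a blood-derived lineage. It scored 1.48 to 2.03 with DMSO, 2.03 to 2.65 with FHT1015, 1.26 to 2.09 with DIV7 guides and 0.53 to 2.35 at DIV18. Hoxb13, known from the tail end and the prostate, had a region at its edge, chr11:96194017-96194516, at 0.47 to 2.11 in the 24 DIV7 libraries and 0 in all 20 DIV18 libraries. Hoxb1, the hindbrain gene of the fourth segment, had no interval in any library, and Hoxb4 had one in 2 libraries but no ranked summit.

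In cluster C, the region inside Hoxc6, a gene of the limb-level spinal cord, at chr15:102999070-102999569, had a mean of 0.89 and was held by 30 libraries. The edge of the same region touches the flank of Hoxc8, whose own best summits averaged 0.40. Hoxc9, which sets thoracic motor neuron identity, led with chr15:102987356-102987855 at a mean of 0.17. Hoxc11 had an interval in 6 libraries and no ranked summit.

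In cluster D, the strongest region stood 4460 bp before Hoxd13, a digit and genital gene, at chr2:74663516-74664015. It had a mean of 0.96 over the 44 libraries, 39 of which held it. Drug libraries scored 1.20 to 2.11, DIV7 guide libraries 0 to 1.20 and DIV18 libraries 0 to 1.19. The Hoxd3 region that overlaps the Hoxd3os1 start (chr2:74715706-74716205) averaged 0.50 in 30 libraries. The region between Hoxd9 and Hoxd8 (chr2:74702166-74702665) averaged 0.40. Hoxd4, although nested in the Hoxd3 span, had an interval in 1 library and no ranked summit.

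**Figure D2:**
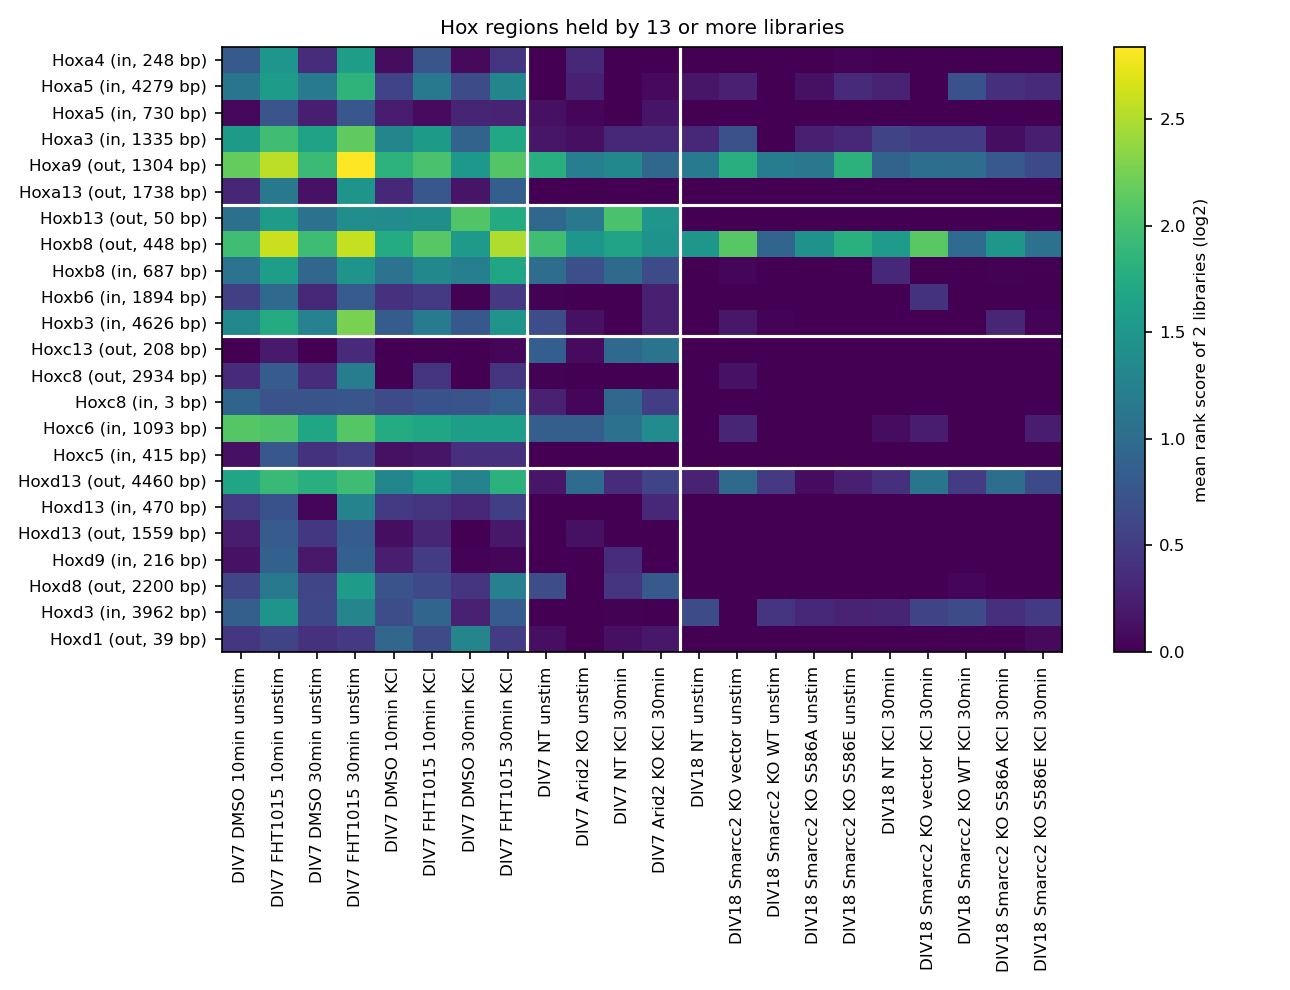
Mean rank score (colour, log2) of the 2 libraries of each group (columns) at 23 Hox regions held by at least 13 libraries (rows, named by nearest member, in or out of a member, with the distance to the nearest edge of a gene in bp). White lines part the clusters and the 3 experiments, and the bright rows across all columns are the regions beside Hoxb8 and Hoxa9.

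Hox intervals took their largest share of the peak list in unstimulated FHT1015 neurons. In these wells, the 4 FHT1015 libraries had 4.70, 5.65, 6.26 and 7.33 Hox intervals per 10000 intervals (5.98 ± 1.10, SD, n = 4), and the 4 DMSO libraries 2.49 to 2.86 (2.60 ± 0.17, SD, n = 4). The values did not overlap. With KCl the FHT1015 libraries had 2.29 to 3.63 and the DMSO libraries 2.51 to 3.21, which did overlap. Counts of intervals moved the same way in unstimulated wells, 81 to 122 against 62 to 79, although the FHT1015 lists were shorter. Over both states the difference was 1.72 per 10000, and FHT1015 was higher in 12 of 16 same-condition pairs. These are descriptions with no test.

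Region by region, 45 of the 76 Hox regions passed the filter of 2 libraries in the drug experiment. In the limma fit across all 182967 regions tested, 22 of the 45 rose with FHT1015 and 1 fell at a Benjamini-Hochberg adjusted p under 0.05. Over all regions, 23.5% were called higher and 36.4% lower. Regions within 1 kb of either end of any gene, a background chosen after seeing the data, were called higher in 35.1% and lower in 17.3%. A region held only under FHT1015 passes the filter because it is high there, so the Hox count is a description. The median change was 0.15 in the Hox regions, −0.05 in all regions and 0.09 near gene ends. Some other gene lists rose in like shares and others in smaller ones. Higher were 183 of 379 regions near forebrain homeobox genes, 51 of 109 near trithorax genes and 32 of 76 near inhibitory neuron markers. The same held for 45 of 89 near oligodendrocyte markers and 8 of 15 near microglial markers. Shares were smaller near astrocyte markers (27 of 75) and posterior or non-neural homeobox genes (58 of 164). They were also smaller near genes flanking the clusters (26 of 74) and TALE cofactors (93 of 314). Near retinoid genes 29 of 139 rose and 46 fell, and near vascular and meningeal markers 5 of 23 rose and 11 fell. Of 45 regions near hindbrain and spinal markers 18 rose and 9 fell. Whether the mix of cells had a part was not tested. The 22 regions lay in all 4 clusters, and the mean best score was higher with FHT1015 for 33 of the 34 members that had a summit in the experiment, against 54.7% of genes of up to 10 kb.

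Hoxa13, a limb and genital gene at the end of cluster A, gave the largest rise, at chr6:52256866-52257365, 1738 bp outside the gene. With DMSO its scores were 0.48, 0.13, 0.27, 0.02, 0.36, 0.28, 0.26 and 0.05, and with FHT1015 1.25, 1.05, 1.22, 1.72, 0.82, 0.72, 0.78 and 0.95, in the order of 10 and 30 min unstimulated and 10 and 30 min KCl. All FHT1015 libraries stood above all DMSO libraries. The change was 0.83 (SE 0.097, limma adjusted p = 3.41e-05), and the region scored 0 in all libraries with guide RNAs. Hoxa4, a gene of the neck level, rose at its edge from 0.33 to 1.06 (change 0.73, adjusted p = 1.41e-04), with unstimulated FHT1015 libraries at 1.29 to 1.69 and DMSO libraries at 0.05 to 0.91.

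The region beside Hoxb8 rose from 1.80 ± 0.20 to 2.45 ± 0.23 (SD, n = 8 each; change 0.65, SE 0.052, limma adjusted p = 2.70e-06). FHT1015 was higher in 16 of 16 same-condition pairs, with 2.54 to 2.65 against 1.87 to 2.03 unstimulated and 2.03 to 2.58 against 1.48 to 1.75 with KCl. Hoxb3, a hindbrain gene, rose by 0.62 (chr11:96311478-96311977, adjusted p = 1.75e-04), and the region near Hoxa5, a gene of neck motor neurons and lung, by 0.59 (chr6:52197226-52197725, adjusted p = 5.44e-04). The Hoxa9 and Hoxd13 lead regions rose by 0.51 and 0.30. A region past the end of Hoxd3, chr2:74749728-74750227, fell by 0.22 (limma adjusted p = 3.03e-05). It scored 0.34 to 0.50 in the 4 unstimulated DMSO libraries and 0 in all 8 FHT1015 libraries. Only those DMSO libraries held it in this experiment, so its fall is a description.

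The calls depended on time and state. In unstimulated neurons 13 Hox regions rose and 1 fell at 10 min (8.24% and 22.1% of all regions), and 26 rose and 2 fell at 30 min (19.8% and 30.1%). With KCl none were called at 10 min by limma (0.786% and 2.92% of all regions; 5 Hox regions had an unadjusted p under 0.05), and 8 rose and 3 fell at 30 min (10.8% and 18.3%). Hoxd1 (−0.79) and Hoxb13 (−0.34) were among the 3 that fell at 30 min with KCl. At 30 min unstimulated, the rises included those at Hoxa13 (1.33), Hoxa4 (1.23), inside Hoxd13 (1.21) and Hoxc5 (1.19, where both DMSO libraries were at 0).

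With the number of intervals of each library in the fit, no Hox region was called for FHT1015, while the median Hox change was 0.39. Under that setting 0.0907% of all regions were called higher. The number of intervals moves with the drug, and its part in the Hox changes cannot be told apart from the drug's. In scores simulated with few changed regions, this scoring gave 353 false calls among 550 for FHT1015. Re-ranking the scores over regions, chosen after seeing the data, gave 9 false among 195 there, and on the real lists 26 Hox regions higher and 1 lower of 39 tested.

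**Figure D3:**
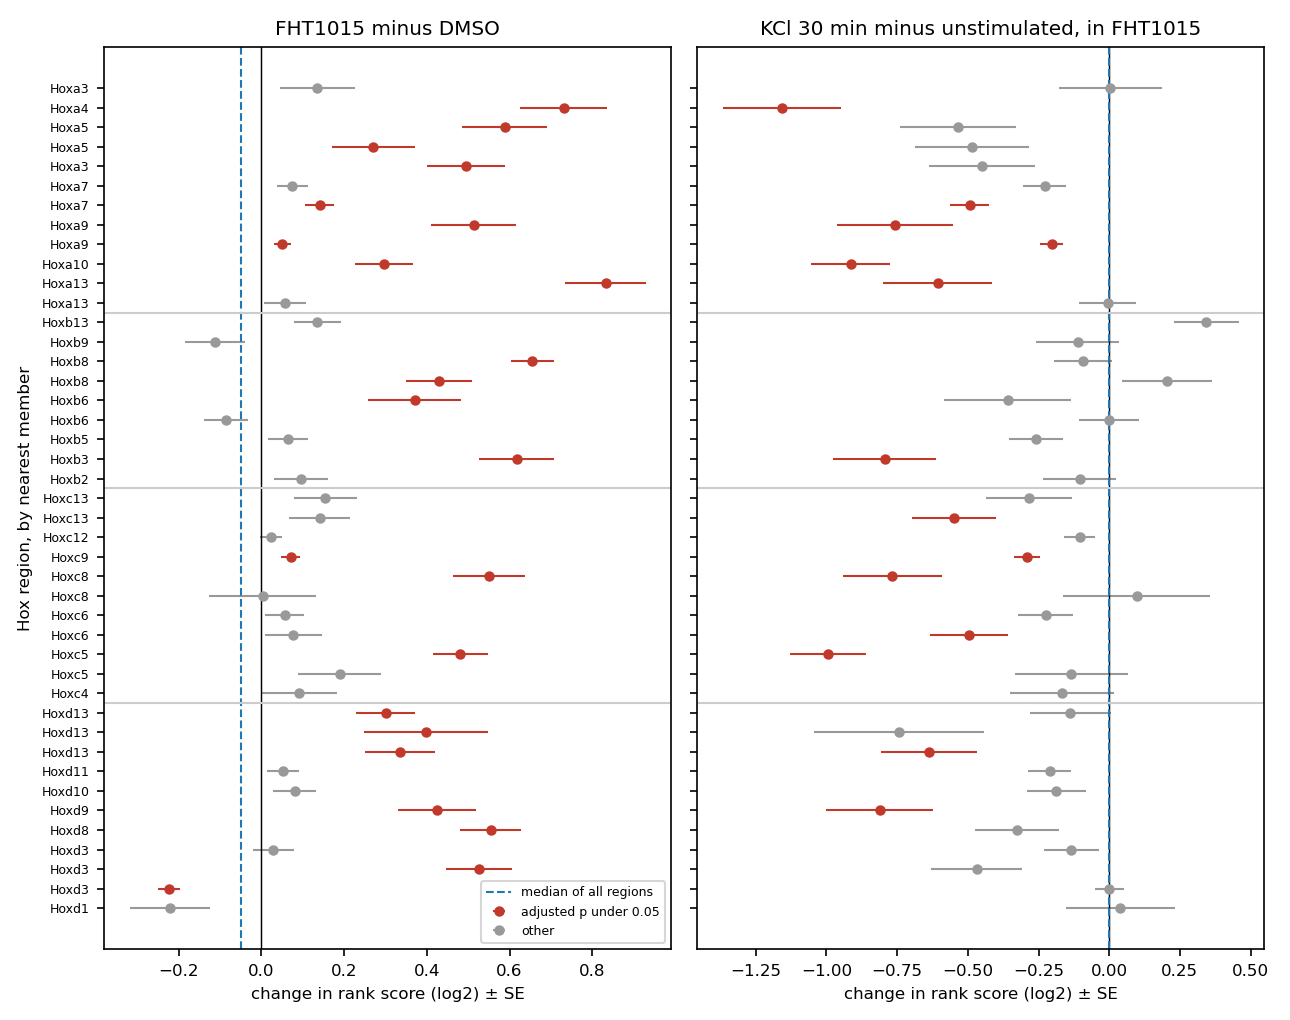
Change in rank score (x axis, log2, ± SE of the fit) of 43 of the 45 Hox regions tested in the drug experiment (rows, by nearest member, in cluster order A to D) for FHT1015 against DMSO (left) and for 30 min of KCl within FHT1015 (right). Red points passed an adjusted p of 0.05, 22 to the right and 1 to the left of 0 in the left panel, and 14 to the left in the right panel.

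KCl depolarization in DMSO moved single Hox regions in both directions. At 10 min, 0 rose and 1 fell of 45 (3.55% and 8.77% of all regions). That 1 was the region past Hoxd3, by 0.41 (limma adjusted p = 0.00101), and with re-ranked scores its change was −0.06 with an adjusted p of 0.413. In this experiment only the 4 unstimulated DMSO libraries held it. It passed the filter because it is high there and could not be higher with KCl, so its falls are descriptions. At 30 min, 3 rose and 4 fell (9.25% and 15.7% of all regions). In scores simulated for this contrast, 198 of 287 calls were false, and 16 of 86 when re-ranked. Hoxb13 rose by 1.00 (SE 0.114, limma adjusted p = 2.37e-04), from 1.05 and 1.10 to 2.04 and 2.11. Hoxd1, known from pain-sensing neurons, rose by 0.89 (adjusted p = 0.00713) at the start-site window printed above, from 0.52 and 0.30 to 1.28 and 1.31. At Hoxb13 and Hoxd1 both KCl libraries stood above both unstimulated ones.

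The 4 that fell at 30 min were Hoxa3 (−0.73, adjusted p = 0.0163), the region before Hoxd13 (−0.53, adjusted p = 0.0204), the region past Hoxd3 (−0.49, adjusted p = 1.52e-04) and the Hoxb8 region (−0.42, adjusted p = 0.0125). Without either of the 30 min KCl libraries or either unstimulated one, Hoxd13 did not pass (0.0570 to 0.0859). Hoxa3 lost its call without the first library of either state (adjusted p up to 0.125) and Hoxb8 without the second of either state (up to 0.0747). Hoxb13, Hoxd1 and the region past Hoxd3 passed in each such fit. A fit of this kind leaves 1 library in a group and takes its spread from the other groups. For the region past Hoxd3 the fall remains a description, since only unstimulated DMSO libraries held it in this experiment.

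Within FHT1015, KCl went with lower Hox scores. The Hox share of intervals was 2.29 to 3.63 per 10000 with KCl and 4.70 to 7.33 without, and KCl was higher in 0 of 8 same-condition pairs. At 10 min 0 rose and 3 fell (2.81% and 3.02% of all regions). At 30 min 0 rose and 15 fell (10.0% and 12.2%), and 17.7% of regions near gene ends fell. Some of the tested Hox regions were held in this experiment only by unstimulated FHT1015 libraries. Those passed the filter because they are high there and could not be higher with KCl, so the Hox counts are descriptions. Markers of oligodendrocytes and astrocytes moved alike, with 42 of 89 oligodendrocyte regions lower (median change −0.39) and 32 of 75 astrocyte regions (−0.32), against a Hox median of −0.28. Microglial markers did not, with 2 higher and 3 lower of 15 regions and a median change of 0. Of 45 regions near hindbrain and spinal markers 18 were lower (−0.28), and the part of these cells in the Hox changes was not tested. Hoxa4 fell most, by 1.16 (SE 0.210, limma adjusted p = 0.00222), from 1.63 and 1.55 to 0.56 and 0.30. Hoxc5 fell by 0.99, Hoxa10 by 0.91 and the Hoxa9 lead region by 0.76. The Hoxb8 region did not pass there, at 2.59 without and 2.50 with KCl. With the number of intervals in the fit, 17 fell and none rose. The change with KCl was also compared between FHT1015 and DMSO by a test of the difference itself. At 30 min 8 Hox regions were lower and 1 higher (9.17% and 12.5% of all regions). Near gene ends 15.3% of regions were lower and 3.53% higher. Of the 8, 4 were at or near 0 in all DMSO libraries and so could not fall there. Hoxa10, also among the 8, could fall little, at 0.08 and 0.02 in the unstimulated DMSO libraries at 30 min. At 10 min 0 were lower and 1 higher (2.19% and 6.44%). The 1 higher at each time was the region past Hoxd3, at 0 in all FHT1015 libraries, so it could not fall there. The unstimulated FHT1015 effect differed between 30 and 10 min at 2 Hox regions, both higher at 30 min (4.25% higher and 4.98% lower of all regions), and both passed the filter through FHT1015 libraries.

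Arid2 knockout gave no called change in a Hox region. Of 20 Hox regions tested in that experiment, 0 rose and 0 fell in the limma fit (0.00355% of all 168866 regions in either direction), and 0 had an unadjusted p under 0.05. Hox intervals per 10000 were 1.25, 1.47, 1.66 and 1.80 with the knockout and 0.99, 1.30, 1.54 and 1.68 with the non-targeting guide, which overlap. The Hoxb8 region averaged 1.47 ± 0.23 against 1.81 ± 0.21 (SD, n = 4 each; change −0.34, SE 0.227), and the region before Hoxd13 0.78 ± 0.41 against 0.27 ± 0.35 (change 0.51, SE 0.293). KCl for 30 min in the non-targeting neurons of this experiment gave 0 calls in either direction (0.0734% and 0.00711% of all regions) and 0 unadjusted p under 0.05. In the Arid2 knockout it gave 0 calls (0.0711% and 0.0101%) with 2 such p. At Hoxb13 the non-targeting values were 0.47 and 1.42 unstimulated and 1.95 and 2.09 with KCl. In simulated data for the Arid2 contrast, 2% of changes of 1 and 27% of changes of 2 were recovered.

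At DIV18, 14 Hox regions were tested. Smarcc2 knockout with vector against the non-targeting guide gave 1 higher and 1 lower (2.65% and 5.95% of all 203195 regions). The region before Hoxd13 rose by 0.71 (SE 0.203, limma adjusted p = 0.0443). Its scores were 1.08, 0.88, 1.19 and 1.02 in the knockout and 0.56, 0, 0.24 and 0.55 in the control, higher in 8 of 8 same-condition pairs, with no overlap. It stood at 0.22 to 0.73 with wild-type Smarcc2 added back (change from vector −0.55, adjusted p = 0.127). Without any 1 of 7 of the 8 libraries the Hoxd13 call was lost, with adjusted p from 0.0672 to 0.148; without the first unstimulated non-targeting library it was 0.0331. A region inside Hoxb8, chr11:96284389-96284888, fell by 0.14 (adjusted p = 0.0495), held by 2 of 4 control libraries and 1 of 4 knockout libraries. Both control values (0.40 and 0.24) came with KCl, and unstimulated controls were at 0. It lost its call without any 1 of 6 of these 8, all but the second KCl control library and the first unstimulated knockout library (adjusted p up to 0.160). Re-ranked scores left 1 Hox region called, and a fit with the number of intervals left none.

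The region beside Hoxb8 fell where wild-type Smarcc2 was added back. It scored 2.18, 2.03, 1.88 and 2.35 with vector and 0.73, 1.12, 1.45 and 0.53 with wild-type protein, a fall of 1.15 (SE 0.231, limma adjusted p = 0.0110) and lower in 8 of 8 pairs. This was the only Hox region called of 14, with 0 higher and 1 lower (3.60% and 2.39% of all regions). With the number of intervals in the fit its adjusted p was 0.0592 at a change of −1.10. The non-targeting neurons stood between, at 1.21, 1.79, 1.35 and 1.80. Vector exceeded them by 0.57 (adjusted p = 0.143), and wild-type add-back was 0.58 lower than them (adjusted p = 0.412), so neither passed. The serine mutants stood at 1.31 to 1.69 (S586A) and 0.91 to 1.89 (S586E). Against wild-type add-back they differed by 0.53 (SE 0.231, adjusted p = 0.847) and 0.47 (adjusted p = 0.757), and none of the 14 Hox regions was called for either mutant, with 2 and 0 unadjusted p under 0.05. Calls over all regions for the mutants were also few, at 0.0148% higher and 0.00787% lower (S586A) and 0.0610% and 0.0202% (S586E).

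KCl for 30 min at DIV18, over the 5 genotypes, gave 1 Hox region higher and 1 lower of 14 (13.9% and 20.6% of all regions). The region between Hoxa7 and Hoxa9 fell by 0.55 (SE 0.111, limma adjusted p = 0.00153), from 0.96 to 2.06 unstimulated to 0.43 to 1.03 with KCl. It was lower in 20 of 20 same-genotype pairs and kept its call without any 1 of the 20 libraries (adjusted p at most 0.00435). Hox intervals per 10000 were 0.76 ± 0.13 with KCl and 0.52 ± 0.17 without (SD, n = 10 each), higher in 18 of 20 pairs.

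**Figure D4:**
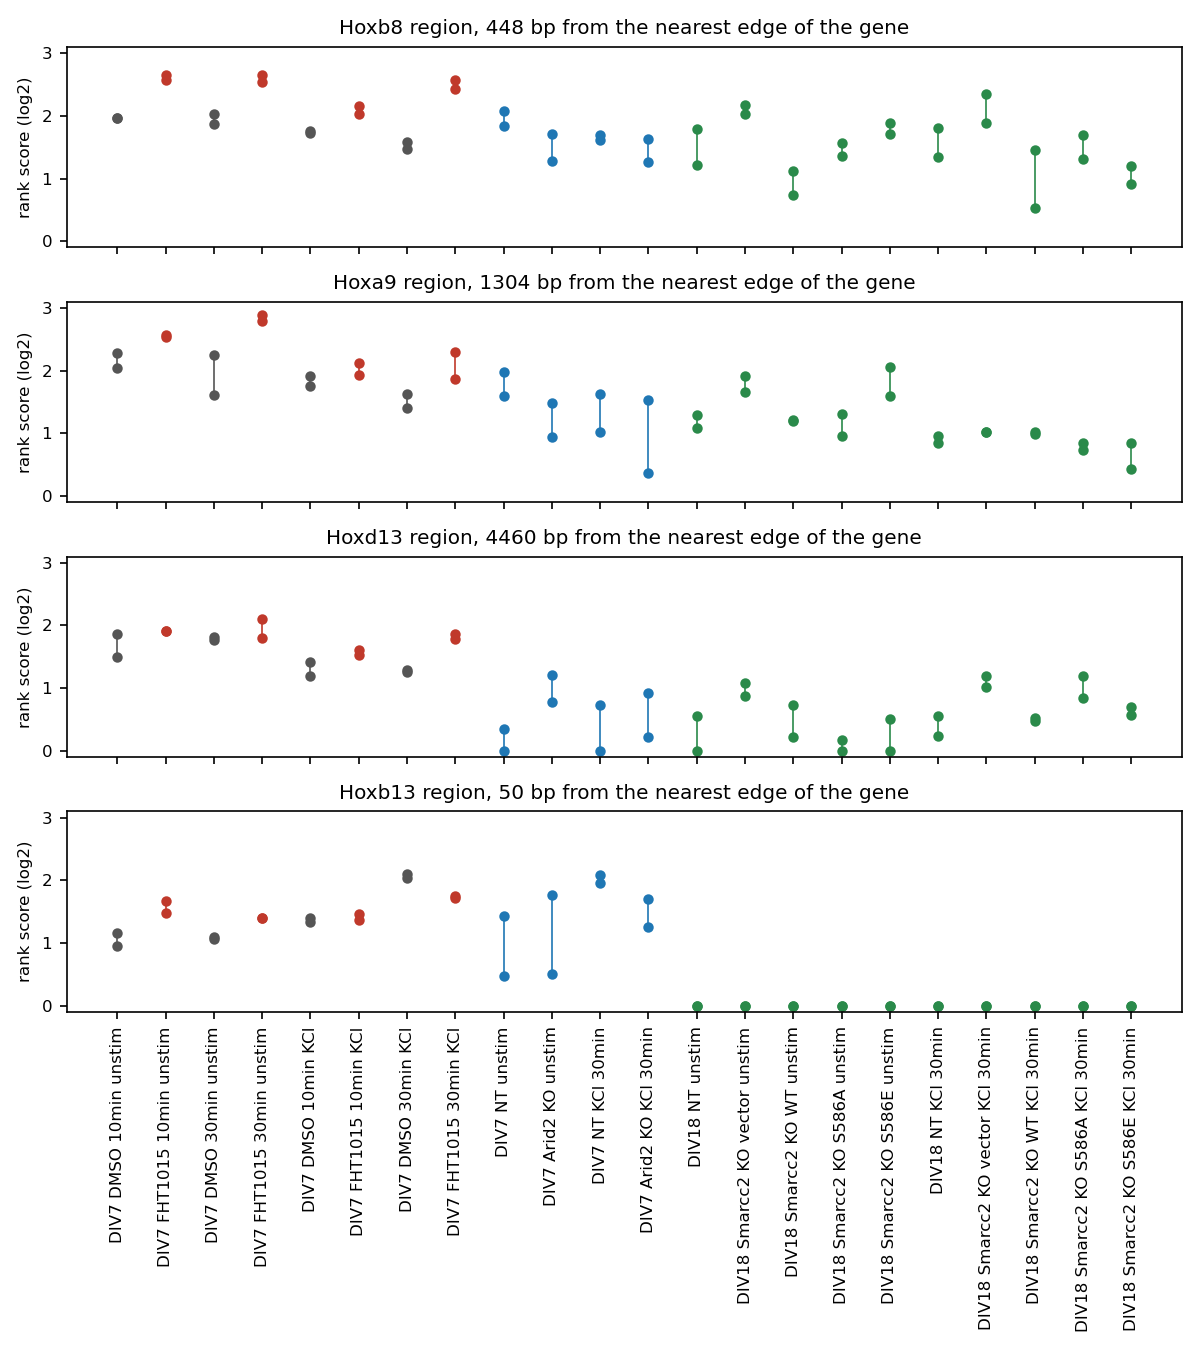
Rank score (y axis, log2) of each library (points; a line joins the 2 libraries of a group) at the regions beside Hoxb8, between Hoxa7 and Hoxa9, before Hoxd13 and at the edge of Hoxb13, in 22 groups (x axis; colours as grey DMSO, red FHT1015, blue DIV7 guide RNA, green DIV18). The Hoxb8 region falls from 1.88 to 2.35 with vector to 0.53 to 1.45 with wild-type Smarcc2, and the Hoxb13 region is at 0 in all 20 DIV18 libraries.

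In the DIV18 control cultures Hox intervals took a smaller share of the peak list than at DIV7. The 4 non-targeting libraries at DIV18 had 0.34, 0.57, 0.68 and 0.80 Hox intervals per 10000 intervals and those at DIV7 0.99 to 1.68, lower in 8 of 8 pairs. The counts themselves overlapped, with 9 to 17 Hox intervals at DIV18 and 14 to 30 at DIV7. The DIV18 lists were longer, with 216877 to 266049 intervals against 144923 to 188379. In the limma fit on these 8 libraries, 0 Hox regions rose and 6 fell of 17 tested (26.3% and 19.6% of all 193163 regions), with a median change of −0.50 against 0.05 in all regions. Day and experiment cannot be told apart, since each day was a separate experiment with its own depth. Hoxb13 fell by 1.48 (SE 0.230, adjusted p = 0.00282), from 0.47, 1.42, 1.95 and 2.09 to 0. Hoxc13, a hair and nail gene, fell by 0.91 at its edge (chr15:102920674-102921173, adjusted p = 0.00349), from 0.73 to 1.21 to 0 in all 4. The Hoxc13 region was also at 0 in all 8 DMSO libraries, which are DIV7 too. Hoxc6 fell by 0.91 (adjusted p = 0.0251), from 0.71, 1.00, 1.61 and 0.52 to 0, 0, 0 and 0.18.

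The region inside Hoxb8 (−0.84, adjusted p = 0.00615) and the region between Hoxd9 and Hoxd8 (−0.56, adjusted p = 0.00384) were also lower at DIV18. Hoxc6 lost its call without any 1 of the DIV18 libraries or the second unstimulated DIV7 library (adjusted p up to 0.0869). With the number of intervals in the fit, none of the 6 passed and no region at all was called. Over all 44 libraries, Hoxc6 stood at 0.52 to 2.25 in the 24 DIV7 libraries and 0 to 0.46 in the 20 at DIV18, without overlap. Other gene lists moved with day as well. Of 97 regions near posterior or non-neural homeobox genes 13 rose and 24 fell, and of 96 near inhibitory neuron markers 2 rose and 63 fell, with a median change of −0.60. Of 315 near forebrain homeobox genes 26 rose and 137 fell. Glial lists went the other way, with 24 higher and 7 lower of 65 astrocyte regions and 28 higher and 8 lower of 65 oligodendrocyte regions. Of 19 regions near hindbrain and spinal markers 4 rose and 3 fell, with a median change of −0.11. The library medians of these markers were 1.25 to 1.72 in DMSO, 0 to 0.90 with DIV7 guides and 0 to 0.42 at DIV18. Those medians were not tested and come from experiments of unlike depth. Whether the mix of cells moved with the Hox regions was not tested. Within this assay, fewer cells with a region open and less opening per cell cannot be told apart.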

How the data were processed

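The deposited data were 44 MACS2 peak lists on mm10, 1 per library. FastQC, Trim Galore, Bowtie2, SAMtools, Picard and bedtools were also used, per the submitters' processing notes, without versions. The authors' lists give each summit a fold enrichment (a ratio to the library's background), a −log10 p, a −log10 q and a score, which was not used. Values in the lists depend on depth, so only ranks within a library were compared. The steps of the deposited fold ratio gave the background level. The q served only as a filter in 1 alternative.

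Regions were 500 bp windows on the first 178672 summits of any library on 19 autosomes, best rank first and without overlap. Each experiment was fitted alone with limma 3.58.1 (R 4.3.3; 1 mean per group, variance trend, Benjamini-Hochberg over all regions held by at least 2 libraries). The day fit used the 8 non-targeting libraries. Tables were made with Python 3.11.15, pandas 2.3.3 and NumPy 2.4.6. Gene spans give starts and ends only, so exons and introns were not assigned. Described were the 3 members with the highest lead score in each cluster, members with no ranked summit, the 5 largest called changes in each direction of a main comparison, and the 2 highest genes of a list. A few results are not reported here; the counts include them. Members, lists and rules were chosen with earlier results of these data known. The fits were tested on simulated data. Recovery of a change of 1 was 97% for FHT1015, 14% for 30 min of KCl in DMSO, 2% for Arid2 and Smarcc2 knockout and 1% for day.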

Additional observations from a re-analysis of the deposited data

Results flagged for a closer look

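In 11 tests of a difference between 2 effects, a Hox region described here passed a limma adjusted p of 0.05. Groups held 2 libraries, so no single library could be tested for standing apart. The change with 30 min of KCl was lower in FHT1015 than in DMSO at Hoxd1 (−0.85) and Hoxb13 (−0.65), which rose with KCl in DMSO. At Hoxc5 (−0.99), Hoxa10 (−0.87), Hoxa7 (−0.49), Hoxc9 (−0.30) and the weaker Hoxa9 region (−0.20), the score fell with KCl in FHT1015. Of these, the Hoxc5, Hoxa7 and weaker Hoxa9 regions were at 0 in all DMSO libraries and Hoxc9 in all but 1. They passed the filter through FHT1015 libraries and could not fall in DMSO, so their differences are descriptions. The Hoxa10 region stood at 0.08 and 0.02 in the unstimulated DMSO libraries at 30 min and at 0 with KCl. It could fall little there, so its difference is a description too.

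At the region past Hoxd3 the change with KCl was higher in FHT1015 than in DMSO, by 0.41 at 10 min and 0.49 at 30 min. It scored 0 in all FHT1015 libraries and could not fall there. In the drug experiment only unstimulated DMSO libraries held it, so these differences are descriptions. The effect of FHT1015 in unstimulated neurons was larger at 30 than at 10 min at Hoxc9 (0.29, adjusted p = 0.0199) and Hoxa7 (0.42, adjusted p = 0.0216), which passed the filter mainly through the 30 min libraries and are descriptions too.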

How the results depend on the processing

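Counts of called Hox regions moved with the unit that was ranked. For FHT1015, 23 calls became 36 with intervals overlapping by at least 1 bp, 14 with an overlap of 50%, 10 with the top 75000 summits, 37 with centred scores and 0 with list length as a covariate (number of intervals). For day, 6 calls became 3 (50% overlap), 2 (top 75000) and 0 (covariate). For 30 min of KCl in DMSO, 7 became 3 (50% overlap) and 4 (top 75000). For 10 min, 1 became 2 (1 bp overlap; −log10 q of at least 5; replicate block) and 0 (top 75000). For KCl at DIV18, 2 became 6 (1 bp overlap), 7 (centred) and 1 (top 75000). For Smarcc2 knockout, 2 became 0 (50% overlap, covariate) and 1 (top 75000, −log10 q of at least 5, re-ranked). For wild-type add-back, 1 became 2 (1 bp overlap, re-ranked), 3 (centred) and 0 (covariate). The cause of these moves was not tested. Arid2 knockout and KCl in DIV7 non-targeting neurons had 0 calls in each setting run.

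Without 1 library at a time the counts ran from 20 to 26 for FHT1015, 4 to 8 for day, 1 to 2 and 4 to 9 for 10 and 30 min of KCl in DMSO, 1 to 3 for KCl at DIV18, 0 to 1 for Smarcc2 knockout and 1 to 2 for wild-type add-back. Without the second unstimulated DMSO library at 10 min there were 2 calls, without the first 30 min KCl library in DMSO 4, and without the second vector library of either state 2. Hox intervals per 10000 then differed by 1.31 to 2.03 (FHT1015), 0.137 to 0.371 (KCl in DMSO), −3.49 to −2.62 (KCl in FHT1015), 0.0415 to 0.273 (Arid2), 0.0560 to 0.207 (Smarcc2), 0.214 to 0.265 (KCl, DIV18) and −0.910 to −0.678 (day). The Arid2 difference of 0.171 turned to −0.209 at a −log10 q of at least 5. The Smarcc2 change inside Hoxb8 turned to 0.0807 (adjusted p = 0.574) with a 50% overlap.

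Replicate numbers were not taken to pair the libraries, since not every correlation exceeded 0.1 in any experiment: correlations of same-numbered deviations were −0.058 to 0.078 (drug), −0.005 to 0.017 (Arid2), 0.028 to 0.169 (Smarcc2) and −0.014 to 0.133 (day). At DIV18 all 45 were positive and 17 exceeded 0.1. With the replicate block, FHT1015 had 22 calls, day 7 and 30 min of KCl in DMSO 8. The largest called changes of the main comparisons, 24 with those at DIV18 included, kept their direction and call with it. The re-ranked setting was chosen after seeing the data.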
